A study of Drosophila melanogaster with 2 samples.

Results

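Chromatin immunoprecipitation followed by sequencing (ChIP-seq) located org-1-GFP, a fusion protein, in Drosophila melanogaster embryos, and the results below concern its peaks at single-direction promoters. A peak was counted there when its summit, the base of highest signal, lay within 500 bp of a protein-coding transcript start and every such start within that distance was on one strand. The rule used only position and gene models, and 1215 of the 4434 peaks in the optimal list met it (27.4%). A further 453 peaks (10.2%) had starts on both strands within 500 bp and are called divergent promoter peaks, and 2766 peaks had neither arrangement.

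The embryos were from a transgenic org-1-GFP strain that stably expressed org-1 with green fluorescent protein at its C-terminal end, were of mixed sex and were collected whole at 2-24 hours of age. The 2 libraries are biological replicates 1 and 2 of this 1 group, and no second genotype, treatment or age is among them. Per the labels the immunoprecipitation used an antibody against GFP, although the antibody field names org-1, and chromatin was sonicated to 200-800 bp. Whole embryos pool every tissue, so a peak cannot be assigned to a cell type, and the labels do not state which regulatory sequence drives the transgene.

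Optomotor-blind-related-gene-1, org-1, encodes a regulator that binds DNA through a T-box domain, and in the fly embryo it is known for specifying particular muscles and visceral mesoderm. A promoter is the DNA at and just upstream of a transcript start, where general factors and RNA polymerase assemble. In the compact fly genome many genes lie head to head and share 1 promoter region, whereas a single-direction promoter serves a start with no close partner on the other strand. Fly promoters are often grouped by short sequence words: the TATA box, the initiator, GAGA repeats bound by the GAGA factor, and the DRE and motif 1 words common at housekeeping genes.

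The sequences below show what lay under 10 of the named summits, chosen because each holds at least 1 of the searched words and lies upstream of its start outside transcribed UTRs. Each runs 5′ to 3′ along the strand of the gene in dm6, extends up to 60 bases either side of the summit, and has the searched words of either strand in capitals, runs of A or T excepted. The first 4 hold the TATA box word TATAAA, read as TTTATA on the other strand.
CG31145, chr3R:23669786-23669906, minus strand: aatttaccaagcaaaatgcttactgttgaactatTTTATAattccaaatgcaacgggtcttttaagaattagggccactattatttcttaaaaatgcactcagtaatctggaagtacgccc
SLC5A11, chr2L:8205237-8205357, minus strand: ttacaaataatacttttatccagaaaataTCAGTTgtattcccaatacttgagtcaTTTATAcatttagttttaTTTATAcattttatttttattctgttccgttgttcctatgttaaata
tin, chr3R:21378708-21378828, plus strand: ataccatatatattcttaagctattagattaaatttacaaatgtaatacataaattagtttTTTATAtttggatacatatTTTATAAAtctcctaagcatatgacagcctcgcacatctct
Hsp26, chr3L:9377489-9377609, minus strand: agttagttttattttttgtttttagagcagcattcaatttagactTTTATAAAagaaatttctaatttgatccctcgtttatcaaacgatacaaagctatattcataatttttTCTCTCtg
Atf3, chrX:1275451-1275571, minus strand: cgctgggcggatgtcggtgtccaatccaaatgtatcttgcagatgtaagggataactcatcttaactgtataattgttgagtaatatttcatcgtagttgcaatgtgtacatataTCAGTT
amon, chr3R:26714332-26714452, minus strand: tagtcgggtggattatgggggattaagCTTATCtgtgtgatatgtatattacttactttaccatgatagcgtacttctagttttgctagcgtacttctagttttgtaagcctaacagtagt
elav, chrX:523437-523557, minus strand: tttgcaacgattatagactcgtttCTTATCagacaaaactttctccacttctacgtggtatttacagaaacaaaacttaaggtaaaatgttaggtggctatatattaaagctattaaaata
spi, chr2L:19575708-19575828, minus strand: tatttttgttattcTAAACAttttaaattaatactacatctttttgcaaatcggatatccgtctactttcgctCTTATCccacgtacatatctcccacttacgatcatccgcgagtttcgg
larp, chr3R:28326546-28326666, minus strand: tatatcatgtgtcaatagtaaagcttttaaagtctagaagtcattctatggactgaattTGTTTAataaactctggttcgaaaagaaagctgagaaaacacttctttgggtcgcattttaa
vnd, chrX:582031-582120, plus strand: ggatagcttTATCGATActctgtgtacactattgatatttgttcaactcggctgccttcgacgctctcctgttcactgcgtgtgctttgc
The TATA box words in these windows lay near summits at −209 to −122 bp from the annotated start, where negative is upstream, not at the distance where a TATA box serves a start. Hsp26 also holds the GAGA word (GAGAGA, or TCTCTC on the other strand), Atf3 and SLC5A11 the initiator word TCAGTT, and amon, elav and spi the GATA word (GATAAG or CTTATC). The windows of larp and spi hold the forkhead word (TAAACA or TGTTTA). The window of vnd holds the DRE word TATCGATA, which is its own reverse complement. The initiator word of Atf3, the GAGA word of Hsp26 and the DRE word of vnd are not fully inside the 101 bp window used for the word counts below. They are therefore not in those counts.

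Most summits lay upstream of the start. Of the 1215 summits, 969 were upstream (79.8%, exact binomial 95% interval 77.4% to 82.0%), 244 were downstream, and those of Csp and Atxn7 fell on the annotated base itself. The median summit was at −171 bp, with quartiles at −280 and −35 bp. The most populated 100 bp were those from −200 to −101 bp with 293 summits, followed by −300 to −201 bp with 237, and 171 lay within the last 100 bp before the start. Downstream, summits thinned to 22 between 200 and 299 bp and numbered 34 and 39 in the next bins out. Intervals here and below cover the counting of peaks only, since all peaks come from the same 2 libraries.

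The position differed between the replicates. When the 4434 strongest regions of replicate 1 alone were classified by the same rule, 84.6% of 1167 were upstream, with a median of −196 bp. In replicate 2 alone 63.7% of 1420 were upstream, with a median of −79 bp. Upstream placement was thus the majority in both libraries, but its share and its distance depended on the library. With 2 replicates and no second group, no test across samples was possible for these shares.

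Stronger peaks lay upstream more often. The signal is the authors' enrichment value per region, which ranks regions within a list and is not on a common scale between lists. With members ranked by signal into 4 equal groups, from the strongest to the weakest, 89.1%, 82.2%, 76.0% and 71.7% were upstream, and the medians were −201, −182, −144 and −122 bp. The shares followed the same order in each replicate by itself, from 89.7% to 75.3% in replicate 1 and from 82.8% to 52.7% in replicate 2. The medians of replicate 2 did not: they were −182, −75, −23 and −25 bp. Median signal was highest from −300 to −201 bp, at 231.7, and lowest from 200 to 299 bp, at 123.6, then 211.9 in the outermost downstream bin. In replicate 1 upstream members had a median of 135 and the others 85.1, against 83.5 and 86.7 in replicate 2. The highest bin of replicate 2 was 400 to 500 bp downstream, at 102.4, against 84.0 from −300 to −201 bp. The 19 members in the last 20 bp of the 500 bp window had a median signal of 160.0, and the 17 peaks in the 20 bp beyond it had 157.3.

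**Figure D1:**
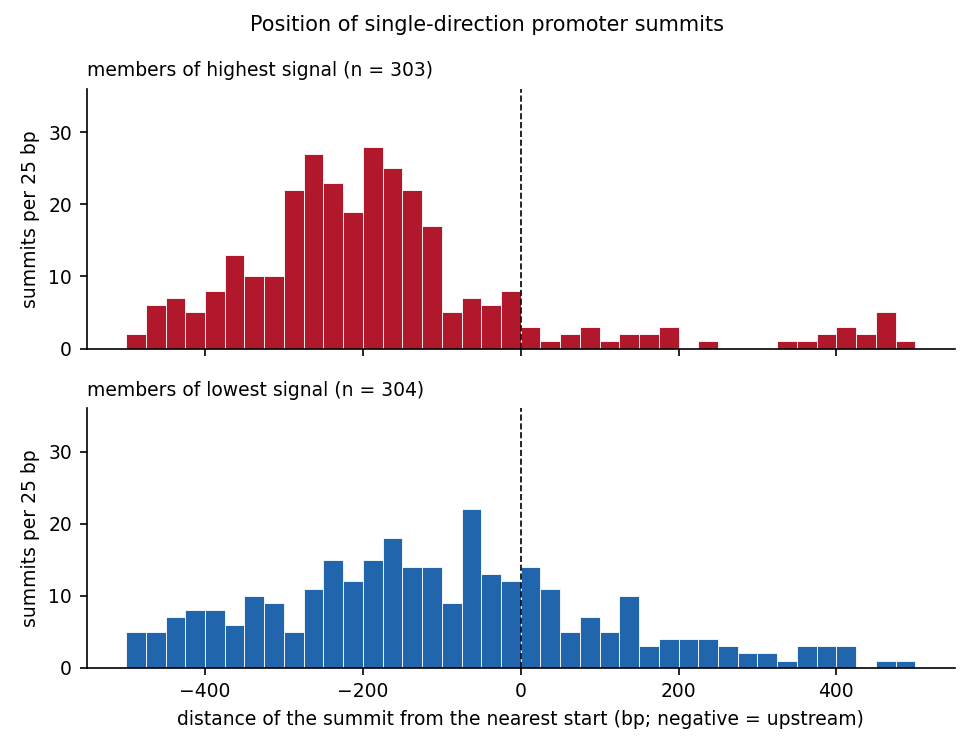
Number of summits per 25 bp against distance from the nearest start in bp, negative upstream, for the strongest of 4 groups of members (above, n = 303) and the weakest (below, n = 304), ranked by signal in the optimal list. Of the strongest group 89.1% lay left of the dashed line at the start, and of the weakest 71.7%.

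Genes with 1 annotated start had 84.8% of 422 members upstream, and genes with 2 or more had 77.0% of 793. Of the 969 upstream summits, 511 were between genes, 335 were in an intron of the same gene, reached from another of its starts, 53 were in an intron of another gene and 47 in a 5′ UTR of the same gene. Of the 246 at or downstream of the start, 145 were in the 5′ UTR, 91 in an intron and 9 in a coding exon. Where the next gene upstream was 5000 bp or more away, 87.2% of 304 summits were upstream at a median of −238.5 bp. Where it was a same-strand neighbour under 500 bp away, 74.1% of 170 were upstream at a median of −87.5 bp. Where it was an opposite-strand neighbour under 500 bp away, 0% of 16 were upstream, because the rule counts upstream summits there as divergent. For 138 members (11.4%) the nearest opposite-strand start was over 500 and up to 1000 bp from the summit, and their median was −64 bp. By chromosome arm the upstream share ran from 75.4% on 2R to 84.2% on X among the 5 arms with more than 200 members, with 2 members on chromosome 4.

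The strongest peaks of the list included many single-direction promoters. They made up 44 of the 100 strongest peaks and 211 of the 500 strongest, against 27.4% of the whole list. Divergent promoter peaks were also more frequent there, at 15 of the 100 and 65 of the 500, against 10.2% of the list. Their median signal was 178.3 with quartiles at 129.6 and 300.9, against 187.2 at divergent promoter peaks and 156.3 at the remaining peaks. Above the median of the whole list, 163.9, were 674 of 1215 single-direction peaks (55.5%) and 270 of 453 divergent peaks (59.6%). The difference of −4.13 percentage points (interval −9.37 to 1.23) did not pass (two-sided Fisher exact test, adjusted p = 0.235 over 14 features).

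The strongest member lay at −196 bp from the start of px, plexus, a nuclear protein of wing vein patterning, at chr2R:22514065-22514531. Its signal was 2356 in the optimal list, 995 in replicate 1 and 1359 in replicate 2, where it ranked first. Ugalt, the Golgi UDP-galactose transporter, followed at 2338 with a summit at −39 bp (chrX:2703667-2704106), 1201 in replicate 1 and 1152 in replicate 2. Both regions were within the 9 strongest of each replicate. CG14100 had 1901, with 1049 in replicate 1 and 851 in replicate 2, and CG1888 had 1731, with 795 and 936. CG31145, the first sequence shown above, had 1657 (chr3R:23669600-23670110), with 984 in replicate 1 and 678 in replicate 2.

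Atf3, a bZIP transcription factor induced by stress, had a summit at −227 bp with a signal of 1504, at 756 in replicate 1 and 748 in replicate 2 (chrX:1275276-1275741). SLC5A11, a sodium-coupled solute transporter, had 1360.2, with 806 and 559 in replicates 1 and 2, and amon, a prohormone convertase, had 1308, with 556 and 758. The peak of ph-p, a Polycomb group gene, was at −440 bp in an intron with 1280.3, and that of larp, an RNA-binding protein of the La-related family, was at −342 bp with 1256. Tina-1 had 1510.3 at −160 bp. Of the 12 strongest members, PNPase, a mitochondrial RNA-degrading enzyme, was the 1 with a downstream summit, 79 bp into its 5′ UTR, with a signal of 1547.

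The other strong downstream summits were farther inside their genes. A second ph-p peak lay 410 bp downstream with 885, at 667 in replicate 1 and 249 in replicate 2. Ptp4E, a receptor tyrosine phosphatase, had a summit 398 bp downstream with 819, and bchs, an adaptor of autophagy, had one 428 bp downstream with 647. CG18622 had 612 at 178 bp downstream. At the other end of the rule, capu, a formin that nucleates actin, had the farthest summit, at −499 bp, with a signal of 136. Csp, a synaptic vesicle chaperone, and Atxn7, a SAGA subunit, with summits on the start itself, had 158 and 107.

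The replicate lists each held 30000 candidate regions, of which the 4434 strongest are called strong here. A region of replicate 1 overlapped 1172 of the 1215 members, a region of replicate 2 overlapped 1202, and both overlapped 1159. Strong regions of both replicates overlapped 790 members (65.0%, 62.3% to 67.7%), against 270 of 453 divergent peaks (59.6%). The difference of 5.42 points (interval 0.226 to 10.7) did not pass after adjustment (two-sided Fisher exact test, p = 0.0453, adjusted p = 0.106). Taken from each replicate list alone it passed in opposite directions, at 8.80 points in replicate 1 (adjusted p = 0.00584) and −10.0 points in replicate 2 (adjusted p = 0.00289, both by Fisher's exact test), and there the replicate itself chose the regions. A further 217 members were strong in replicate 1 only, 191 in replicate 2 only and 17 in neither.

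The members strong in 1 replicate differed by replicate in place and in base composition. Those strong in replicate 1 only were 88.5% upstream at a median of −201 bp and had a mean GC content of 31.3% in the 101 bp around the summit. Those strong in replicate 2 only were 53.9% upstream at a median of −23 bp, with 45.0% GC. Members strong in both were 83.7% upstream at −184 bp, with 35.5% GC. Across the 1159 members with a region in both lists, Spearman's rho of the replicate signals was 0.519, at 0.593 for the 929 upstream summits and 0.301 for the 230 others. The log2 ratio of replicate 1 over replicate 2 had a Spearman's rho of −0.528 with GC. These correlations are across peaks of the same libraries, which are not independent replicates, and the part of GC in the difference between replicates was not tested.

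**Figure D2:**
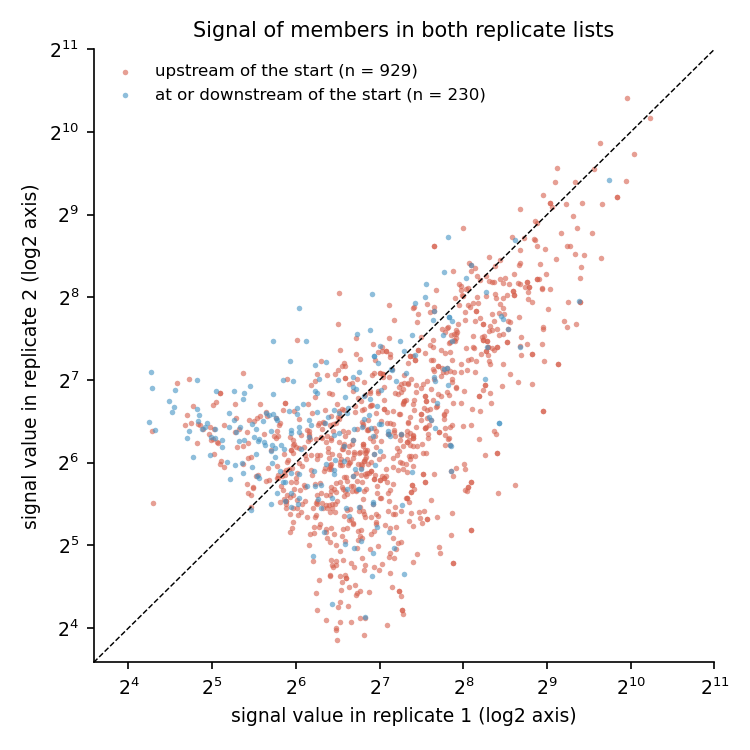
Signal value of each member in replicate 2 against that in replicate 1, both on log2 axes, for the 1159 members found in both replicate lists. Upstream summits (red, n = 929) lie mostly below the dashed line of equal values, whose position depends on the scale of each list, while the 230 at or downstream of the start (blue) lie more around it.

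**Figure D3:**
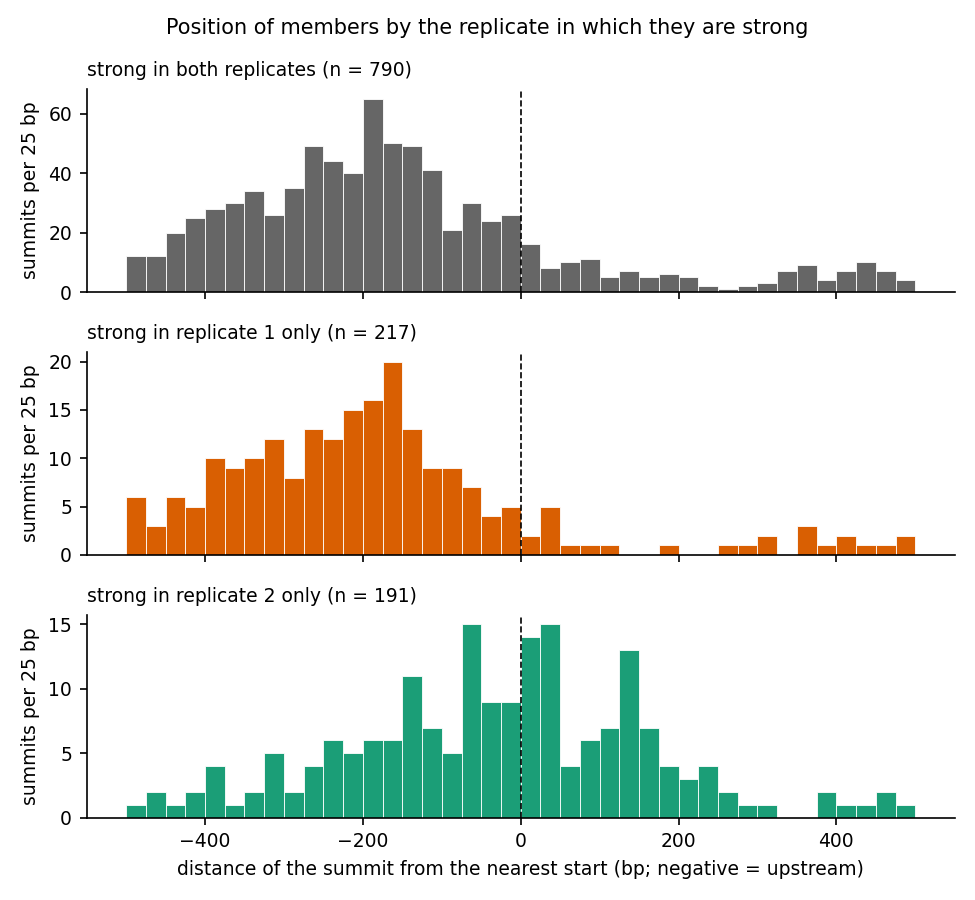
Summits per 25 bp against distance from the nearest start in bp, for the 790 members strong in both replicates, the 217 strong in replicate 1 only and the 191 strong in replicate 2 only. The first 2 sets centre at −184 and −201 bp, and the third spreads on both sides of the start with a median of −23 bp.

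The extremes of the replicate ratio were as follows. CG10365 at −380 bp had 235.5 in replicate 1 and 27.5 in replicate 2, with 21.8% GC. rdgB, a phosphatidylinositol transfer protein of photoreceptors, at −365 bp had 154.3 and 18.6, and CG43736 at −252 bp had 273.3 and 36.3. Among those with the lowest ratio, Stat92E, the transcription factor of JAK/STAT signalling, had 65.5 in replicate 1 and 233.3 in replicate 2 at 372 bp downstream. Oatp74D, the ecdysone importer, had 52.9 and 177.2 at 140 bp downstream, and pyd, a junction protein, had 41.2 and 135.5 at −87 bp with 51.5% GC. These 6 have the most extreme ratios among members above the median signal of the optimal list.

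Base composition differed with position. Mean GC over the 101 bp was 36.3% ± 10.2 (SD, n = 1215 peaks), against 43.2% in windows 400 bp to either side. In the third of members with the lowest GC, 90.5% were upstream and median signal was 234. In the third with the highest GC, 65.8% were upstream and median signal was 145. By replicate, these medians fell from 165 to 86.1 in replicate 1 and rose from 79.9 to 89.2 in replicate 2. Upstream summits averaged 34.9% GC against 43.5% in their flanking windows, and the others 41.7% against 41.8%. The 2 flanks were unlike. In the 25 bp bins that begin at −400 and 400 bp from the summit, upstream members had 40.8% and 46.1%. The others had 38.7% and 45.1%. The GC of the annotated promoters themselves, from 250 bp before to 50 bp after the start, was 42.8% for the 1117 promoters nearest a member and 40.7% for 13336 single-direction promoters with no peak.

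A 101 bp window centred on each summit was read in both orientations for 12 short words, which may overlap one another. Of the 14 features tested between single-direction and divergent peaks, 4 passed an adjusted p of 0.05. The GAGA word GAGAGA was at 69 of 1215 single-direction summits (5.68%) and 4 of 453 divergent summits (0.883%), a difference of 4.80 points (interval 3.0 to 6.34, two-sided Fisher exact test, adjusted p = 3.58e-05). It passed in each replicate list alone as well, at 3.94% against 1.45% in replicate 1 and 8.38% against 1.57% in replicate 2. The GAGA word was not centred on the summits: it was at 6.87% of flanking windows and 4.66% of the remaining peaks.

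The other 3 words were rarer at single-direction summits. The TATA box word was at 18.7% of single-direction and 26.7% of divergent summits (Fisher exact test, adjusted p = 0.00295), against 11.2% in the flanks of single-direction summits. The DRE word was at 1.40% and 3.97% (17 and 18 peaks, adjusted p = 0.0146) and the motif 1 word GGTCACAC at 0.741% and 2.65% (9 and 12 peaks, adjusted p = 0.0163, both by Fisher's exact test). In replicate 1 alone neither the DRE word nor the motif 1 word passed (Fisher exact test, adjusted p = 0.0839 and 0.489), and in replicate 2 alone the TATA box word did not (adjusted p = 0.107). The flanks of single-direction summits were uneven in the TATA box word. In 50 bp bins the upstream flank had 8.40% and 8.64%, and the downstream flank 3.54% and 4.77%. The bins on either side of the summit had 10.7% and 9.88%. The p-values measure counts of peaks in these 2 libraries, not animals or conditions.

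Annotated promoters, those near a peak and those without one pooled, differed in the same words. Divergent promoters without a peak were not counted separately, so the difference among promoters without a peak was not tested. In the 300 bp promoter windows, GAGAGA was in 16.5% of 14770 single-direction and 8.07% of 4483 divergent promoters, and TATCGATA in 5.27% and 16.9%. GGTCACAC was in 4.39% and 14.4%, and TATAAA in 40.8% and 47.0%. Among single-direction promoters, GAGAGA was in 30.3% of the 1117 nearest a member and 15.3% of the 13336 with no peak. TATAAA at −40 to −16 bp, the usual place of a TATA box, was in 3.85% of the 1117 promoters nearest a member and 8.17% of the 13336, and the initiator core TCAGT at −5 to +7 bp in 15.8% and 11.0%. No test was made of these shares.

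**Figure D4:**
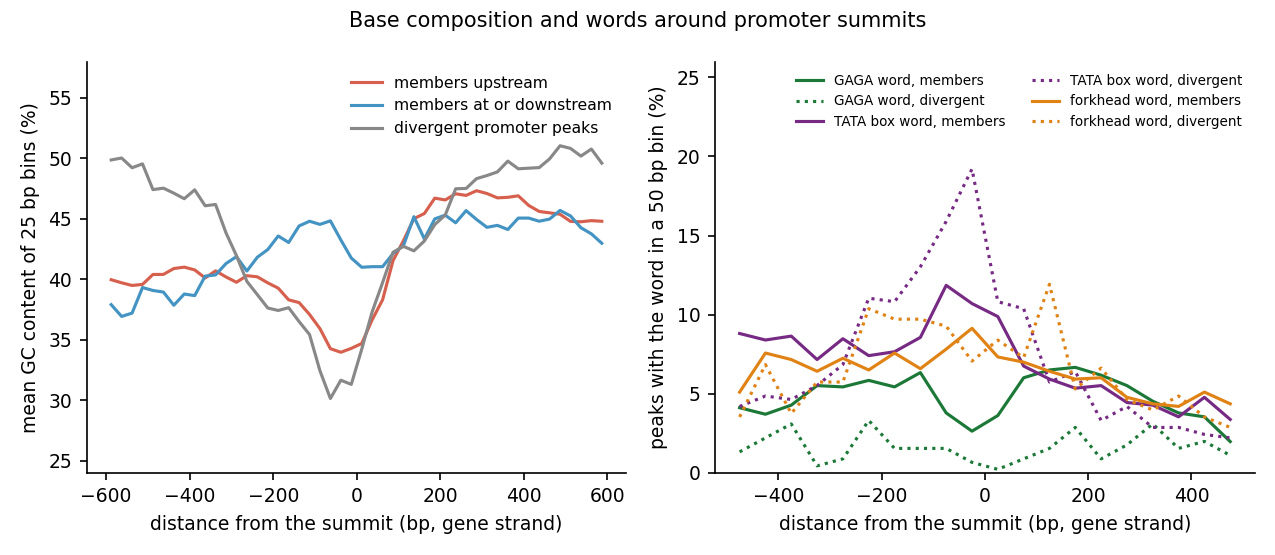
Left, mean GC content in 25 bp bins against distance from the summit along the gene strand, for members upstream of the start, members at or downstream of it, and divergent promoter peaks. Right, percent of peaks with a word in each 50 bp bin, solid for the 1215 members and dotted for the 453 divergent peaks. The GAGA word is more frequent in members over most of the range and dips at the summit, to 2.63% in the bin just before it.

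The word of the org-1 family was scarce. The T-box core AGGTGTG was at 7 of 1215 single-direction summits (0.576%) and 1 of 453 divergent summits (0.221%), and at 0.651% of the remaining peaks and 0.700% of flanking windows. Between single-direction and divergent summits the difference of 0.355 points had an interval of −0.706 to 0.990 (two-sided Fisher exact test, adjusted p = 0.758). The forkhead word was at 15.3% and 14.3%, the homeodomain word TAATTA at 9.05% and 9.71%, the GATA word at 6.91% and 5.52%, and the initiator word at 6.75% and 6.84%, none of which passed. Nor did the E-box CAGCTG (3.79% and 5.08%), the motif 7 word CATCNCTA (1.81% and 3.09%) or a run of 6 A or T (21.3% and 26.3%, Fisher exact test, adjusted p = 0.0989). In replicate 2 alone the E-box (5.28% and 9.40%) and the motif 7 word (1.20% and 3.39%) did pass (Fisher exact test, adjusted p = 0.0134 each). With words taken within 100 bp of the summit the E-box, the motif 7 word, the homeodomain word and the run of A or T passed, each less frequent at single-direction summits (Fisher exact test, adjusted p = 0.00335, 0.00038, 0.0211 and 0.0242). Absence of a word says only that these letters were not in the window.

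Of the 10738 protein-coding genes with a single-direction start, 1050 had 1 or more members within 500 bp of it (9.78%). Of these genes 893 had 1 member, 141 had 2 and 16 had more. Hnf4, a nuclear receptor, Rtnl1, a reticulon of the endoplasmic reticulum, dnc, the cAMP phosphodiesterase, pyd and l(3)neo38 had 4 each, spread over 5 to 9 annotated starts. Genes with a member were long, with a median of 6940.5 bp against 2120 bp for those without, and 62.6% had 2 or more starts against 25.8%. The share with a member was 5.19% of 7578 genes with 1 start and 42.8% of 435 genes with 4 or more. The class counts below are not adjusted for the number of starts. All classes were chosen with earlier results of these data known, so their intervals describe counts and are not tests.

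Cytoplasmic ribosomal protein genes stood well above that background. A member was at 32 of 60 (53.3%, 40% to 66.3%), and these lay on the start: the median was −9 bp and 27 of 33 summits were within 50 bp, against 140 of all 1215 members. RpL30 had the highest signal, 542.9, at 17 bp downstream (chr2L:19009170-19009452), with 218.8 in replicate 1 and 317.3 in replicate 2. RpL23A had 521.7 at −74 bp, with 252.2 and 271.2 in replicates 1 and 2, and RpS10b had 450.2 at −11 bp, with 244.5 and 205.2. The lowest was 110.8, and 25 of the 33 were strong in both replicates. With each replicate alone the count was 27 of 60 in replicate 1 (45.0%, against 9.29% of all genes) and 33 of 60 in replicate 2 (55.0%, against 11.0%), with medians of −25 and 14.5 bp. Mean GC at these summits was 46.6%.

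Other genes of the protein-making machinery, and those of respiration and protein breakdown, had lower shares. Translation factor genes had a member at 8 of 37 (21.6%, 9.83% to 38.2%), an interval that starts just above the background, with 6 of 37 in replicate 1 alone (16.2%, against 9.29%) and 8 of 37 in replicate 2 alone. They were led by eIF6, which keeps ribosomal subunits apart, with 878.4 at −109 bp, and eEF1gamma, an elongation factor subunit, with 477.0 at −16 bp. Mitochondrial ribosomal protein genes had 1 of 20 (5%, 0.127% to 24.9%), an interval that holds the background. That gene was mRpL41, with 1063 at −137 bp. No member was at any of the 52 oxidative phosphorylation genes or 26 proteasome genes with a single-direction start, counts that allow shares of up to 6.85% and 13.2% (exact 95% upper bounds), the second of which holds the background. Replicate 2 alone gave 3 of 52 oxidative phosphorylation genes (5.77%), and replicate 1 alone gave 1 of 26 proteasome genes.

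Stress and immediate early genes, a list chosen like the other classes with earlier results of these data known, had a member at 10 of 19 (52.6%, 28.9% to 75.6%). Besides Atf3 these included Sesn, the sestrin that restrains TOR signalling, with 1072 at −235 bp, at 532 in replicate 1 and 547 in replicate 2. The zinc finger factor cbt had 950.0 at −390 bp and REPTOR, a factor released when TOR is low, had 622 at −174 bp. foxo, Thor, cnc, Xbp1, p53 and Lk6 completed the 10, with signals from 128 to 303. The count was 10 of 19 in replicate 1 and 11 of 19 in replicate 2. Of heat shock and chaperonin genes 3 of 26 had a member (11.5%), near the background: Hsp27 with 699, Hsp83 with 613 and Hsp26 with 228, at −146, −122 and −122 bp.

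**Figure D5:**
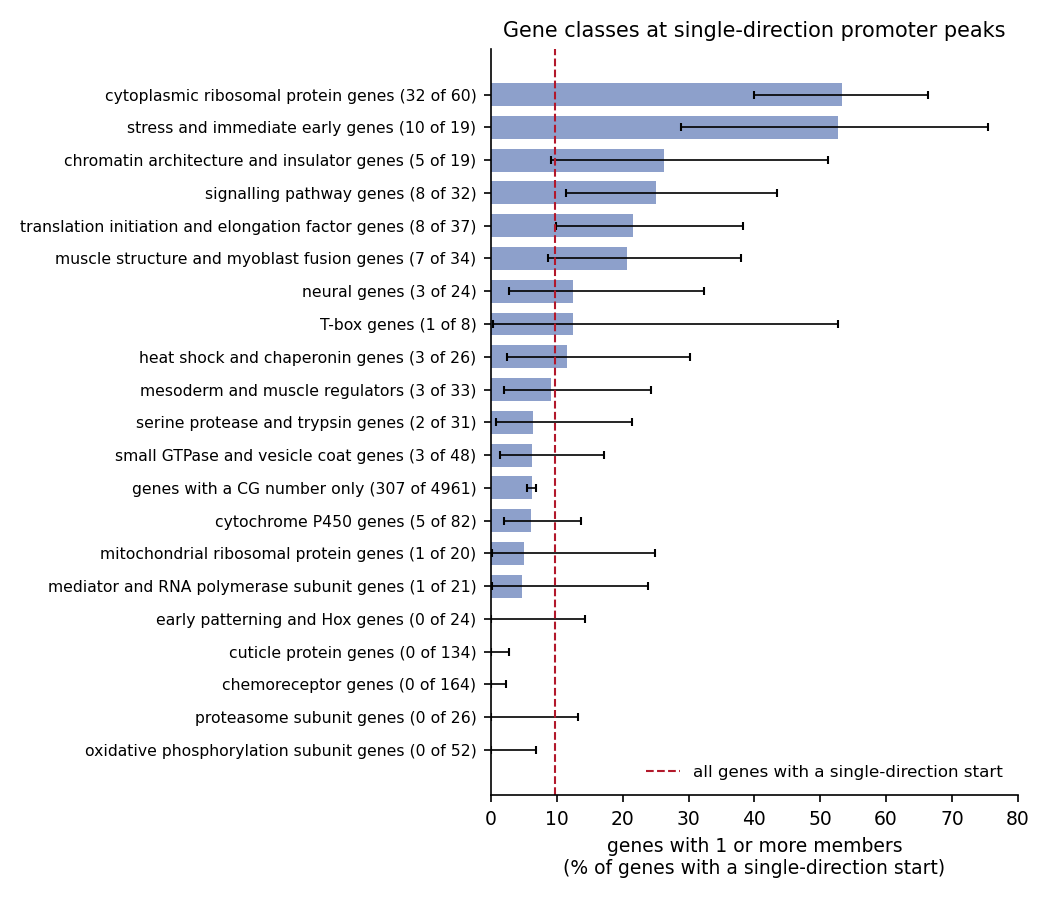
Percent of genes with a single-direction start that had 1 or more members, for 21 gene classes with exact binomial 95% intervals, with the counts in the labels and the share over all such genes, 9.78%, as the dashed line. The intervals of the cytoplasmic ribosomal protein class (32 of 60) and the stress class (10 of 19) lie to the right of the line, as does that of signalling genes (8 of 32), while that of translation factor genes (8 of 37) starts at it, at 9.83%. The classes were chosen with earlier results of these data known.

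Genes of the tissues where org-1 is known to act were met at mixed rates. Of mesoderm and muscle regulators 3 of 33 had a member (9.09%), close to the background. They were tin, the homeobox gene of heart and visceral mesoderm, with 385 at −209 bp (219 in replicate 1 and 160.5 in replicate 2), Poxm, a Pax family gene of muscle precursors, with 368 at −398 bp (292 and 78.2), and htl, the mesodermal FGF receptor, with 244 at −364 bp (169 and 73.7). In replicate 1 alone 4 of 33 had one (12.1%, against 9.29% of all genes). In replicate 2 alone 8 of 33 had one (24.2%, against 11.0%). Of the 8 T-box genes, 1 had a member (12.5%, 0.316% to 52.7%), an interval that holds the background of 9.78%. It was org-1 itself, at −336 bp in the region chrX:8455212-8455568, with a signal of 484, at 259 in replicate 1 and 226 in replicate 2. Replicate 1 alone gave 1 of 8 (12.5%, against 9.29% of all genes) and replicate 2 alone 3 of 8 (37.5%, against 11.0%).

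Muscle structure and myoblast fusion genes had a member at 7 of 34 (20.6%, 8.70% to 37.9%), an interval that holds the background. Msp300, a nesprin that anchors muscle nuclei, had 574 at −333 bp, sls, the titin-like Sallimus protein, had 366 at −278 bp, and rols, an adaptor of myoblast fusion, had 265 at −410 bp. Tm1, Act87E, Zasp52 and if completed the class, and 7 of its 8 members were upstream. Their median signal was 138 in replicate 1 and 78.7 in replicate 2, against 122 and 84.5 over all members.

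Signalling genes had a member at 8 of 32 (25%, 11.5% to 43.4%), and all 12 members were upstream at a median of −248 bp. The position depended on the library: replicate 1 alone had a median of −272 bp with 0 of 15 regions within 50 bp of the start, and replicate 2 alone had −126.5 bp with 4 of 14. The ligand spi, the main activator of the EGF receptor, had 3, at 717, 233 and 196. Those of 717 and 233 are summits of the same region. The secreted inhibitor of the same receptor, aos, had 407 at −312 bp, at 330 in replicate 1 and 83.7 in replicate 2, and pnt, an ETS factor downstream of it, had 131. In the Notch pathway the receptor N had 123. The coactivator mam had 3 members from 126 to 172, with those of 172 and 126 in overlapping regions. The ligase of Notch ligands, neur, had 263 at −221 bp, at 230.5 in replicate 1 and 35.1 in replicate 2. shn, a zinc finger factor of Dpp signalling, had 290.3, and the FGF ligand bnl had 119.

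Chromatin and insulator genes had a member at 5 of 19 (26.3%, 9.15% to 51.2%), an interval that holds the background of 9.78%. They were ph-p and its neighbour ph-d, lola, a BTB zinc finger gene with 537 at −376 bp, Trl, which encodes the GAGA factor, with 327 at 136 bp downstream, and BEAF-32, an insulator protein, with 178 at 82 bp downstream. Of neural genes 3 of 24 had one (12.5%), close to the background: elav, a neuronal RNA-binding protein, with 781 at −271 bp, and the homeobox genes vnd with 111 at −30 bp and pros with 102 at 20 bp downstream. In replicate 1 alone 1 of 24 had one (4.17%, against 9.29% of all genes) and in replicate 2 alone 7 of 24 (29.2%, against 11.0%).

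Cuticle protein and chemoreceptor genes were below the background: no member was at any of 134 cuticle protein genes or 164 chemoreceptor genes, which allows shares of up to 2.72% and 2.22%. None was at any of 24 early patterning and Hox genes either, but there the upper bound of 14.2% holds the background, and replicate 1 alone gave 2 of 24. Cytochrome P450 genes had 5 of 82 (6.10%) and small GTPase and vesicle coat genes 3 of 48, both with intervals that hold the background. Serine protease and trypsin genes had 2 of 31, and mediator and RNA polymerase subunit genes 1 of 21, also with intervals that hold it. Genes known only by a CG number had 307 of 4961 (6.19%, 5.53% to 6.89%), below the 9.78% of all genes. These counts are of genes with a single-direction start, and expression of the genes was not measured.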

How the data were processed

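Per the labels and the descriptions deposited beside the files, the authors made a list of candidate regions from each dm6 alignment with a control alignment, one from both replicates pooled, and an optimal list thresholded on the irreproducible discovery rate. Aligner, peak caller and thresholds: not given in the sources used here. Each region carries the authors' deposited signal value, a deposited −log10 q-value (72.9% of members share the highest one, so it ranked nothing) and a summit offset. The lists hold no read counts, so depth is unknown. Lists on dm3 were not used.

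Summits were placed against protein-coding starts of Ensembl release 115 (BDGP6.54), whose arm lengths hold all dm6 regions. Among genes, 17 members count for none, because their start has an opposite start within 500 bp of itself. A replicate value is the strongest region overlapping the peak by 1 bp or more. Single-direction and divergent peaks were compared by two-sided Fisher exact tests with Benjamini-Hochberg adjustment over 14 features, with Newcombe intervals of the differences (Python 3.11.15, scipy 1.17.1, statsmodels 0.14.6), tested on simulated data. The members, gene classes and words were chosen with earlier results of these data known. Named genes are the 12 strongest members, the 5 strongest downstream, the 3 strongest of each class (all of the smaller ones), the extremes of distance and of replicate ratio, and the genes with most members. Other class members were named to complete a class, with their values seen. 9 listed symbols matched no gene. Alternatives changed the windows, the list, the overlap and the replicates used.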

Additional observations from a re-analysis of the deposited data

How the results depend on the processing

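The position of the summits depended most on the library: leaving out 1 replicate gave 63.7% to 84.6% upstream, medians of −196 to −79 bp, 50.3% to 60.3% above the median signal and 57.9% to 67.2% strong in both. The difference in that last share from divergent peaks ran from −10.0 points without replicate 1, a reversal, to 8.80 points without replicate 2, and both passed. In each case the remaining replicate itself chose the regions. A window of 250 bp gave 754 members, a median of −121 bp, 61.7% strong in both and 2 differing features. A window of 1000 bp gave 71.9% upstream, and 1000 bp for opposite starts gave 2 features. Keeping 1 summit per distinct region gave 1205 members, 79.6% upstream, and 4 features. The 1000 strongest peaks gave 357 members, 87.1% upstream, a median of −200 bp, 100% above the median (by construction), 98.6% strong in both, 350 genes and 0 features by Fisher's exact test (2 at an unadjusted p under 0.05). The most upstream start gave 74.7% upstream. Overlap of 50% of the peak gave 58.8% strong in both, and the 2000 strongest regions 37.4%. Words within 100 bp gave 8 features, and within 25 bp 0 (4 at an unadjusted p under 0.05, Fisher's exact test). Over 10 alternatives the GAGA difference kept its direction in all and passed in 8, and the TATA box, DRE and motif 1 differences kept theirs and passed in 6, 6 and 5. No paired analysis was possible because both libraries belong to 1 group.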
